A study of Mus musculus with 24 samples.

Results

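The genes followed here, 10 in all, serve epithelial defence: the antimicrobial lectin gene Reg3g, the alarmin cytokine genes Tslp, Il33 and Il1a, the chemokine genes Cxcl1, Cxcl2, Cxcl5, Ccl20 and Cxcl12, and the chemokine receptor gene Cxcr4. They are 10 of the 35519 genes to which the transcripts in the files were assigned. They were listed by name with earlier results of these data known. Recomputing the rule by which those results had named genes showed that 4 of them had been selected on their changes. The rule took only called genes whose compared groups did not overlap. Reg3g was among the largest rises on androgen withdrawal in all 3 genotypes, Cxcr4 in WT and Tslp in HET organoids, and Il1a was among the largest falls in tissue relative to organoids. Those changes are therefore given as descriptions, without a p-value, and so is every other comparison of Reg3g, Tslp and Cxcr4 that uses organoid libraries, except the test of whether genotypes responded differently.

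RNA was sequenced from mouse prostate organoids and from the anterior lobe of the mouse prostate. Organoids are small epithelial cultures. They were started from single cells of anterior lobes of 3-month-old mice, embedded in Matrigel and fed a medium with EGF, Noggin, R-spondin, the TGF-beta receptor inhibitor A83-01 and the ROCK inhibitor Y27632. The 18 organoid libraries form 6 groups of 3: Brca1+/- (HET), Brca1-/- (KO) and wild type (WT), each grown without or with dihydrotestosterone (DHT), the active androgen of the prostate. The 6 tissue libraries form 3 groups of 2: HET, KO and WT. The age of the tissue donors, the strain, the Cre or promoter behind the deletion, and whether replicates came from separate animals or cultures are not given in the sources used here, so p-values reflect the spread among samples alone, which may be technical.

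Library size ran from 11965815 estimated reads in WT organoids with DHT, replicate 1, to 58445041 reads. In that smallest library 28.1% of reads came from a single gene, and the next smallest library had 25233980 reads. Mitochondrial genes took 9.43% and 10% of reads in replicate 1 of HET and of KO organoids without DHT, against 1.60% to 5.39% in the other 22 libraries. Brca1, the targeted gene, was checked first. Without DHT it ran from 17.2 to 20.2 CPM (read counts scaled by library size) in HET, from 10.3 to 13.1 CPM in KO and from 11.2 to 14.2 CPM in WT organoids. With DHT it ran from 14.7 to 18 CPM in HET, from 9.64 to 11.8 CPM in KO and from 13.2 to 14.3 CPM in WT organoids. Brca1 was called lower in KO than in HET organoids (log2 -0.63 with and -0.71 without DHT) and higher in HET than in WT without DHT (0.53), while KO did not pass the test against WT (-0.34 and -0.18). Total Brca1 RNA thus does not order the genotypes as the labels would, no source used here gives the position of the deletion, and HET, KO and WT below mean libraries labelled so. The 4 general epithelial markers (Epcam, Cdh1, Krt8, Krt18) summed to between 2876 and 3811 TPM (read counts per transcript length, scaled alike in every library) in organoids. Of the 10 leukocyte markers, Tyrobp was at 0 in all 18 organoid libraries, and Ptprc, which encodes CD45, reached at most 0.183 TPM in them. Others were present: Cd68 had 55.8 to 120 TPM in organoids, against 5.67 to 18.7 TPM in tissue, and Ly6g reached 2.81 TPM in organoids. The 10 markers summed to 56.9 to 121 TPM in organoids and to 39.7 to 159 TPM in tissue.

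In tissue, 2 libraries stood apart. The 7 secretory genes of the seminal vesicle, a gland next to the anterior lobe, summed to 178238 TPM in WT tissue replicate 2 and to 62877 TPM in HET tissue replicate 1, against 5.12 to 24.4 TPM in the other 4. Probasin (Pbsn), a prostate secretory gene, was at 65.3 TPM in HET tissue replicate 1 and at 3228 to 19649 TPM in the other 5. For tissue over organoids, and for the largest genotype values in tissue, log2 changes are therefore also given without these libraries.

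In the GRCm38 annotation Cxcl5, Cxcl1 and Cxcl2 lie on the same strand of chromosome 5, at chr5:90759360-90761624, chr5:90891241-90893115 and chr5:90903871-90905938. Ccl20 is at chr1:83116766-83119167, and Cxcr4 on the reverse strand at chr1:128588199-128592293. Reg3g is on the reverse strand at chr6:78466269-78468872, Cxcl12 at chr6:117168535-117181367, Il1a on the reverse strand at chr2:129299610-129309972, and Il33 at chr19:29925114-29960718. Tslp lies on chromosome 18. All 10 are protein-coding genes. Cxcl1, Cxcl2 and Cxcl5 are related in sequence, and how reads they share were divided was not tested.

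As background, epithelia use these genes to call and shape immunity at a surface. Cxcl1, Cxcl2 and Cxcl5 encode ligands of the receptor CXCR2 that attract neutrophils, and Ccl20 encodes the ligand of CCR6, which attracts dendritic cells and lymphocytes. CXCL12, made mainly by stromal cells, acts on CXCR4. IL-33 and IL-1 alpha are stored in epithelial cells and released when cells are damaged, TSLP acts on dendritic cells and innate lymphoid cells, and REG3G is a secreted lectin that kills Gram-positive bacteria in the mouse gut.

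RefSeq promoter entries (GRCm38.p6) matched 8 of the 10 members. Only bases before the annotated start were kept, at most 250, and 4 motifs were searched on both strands. Tslp and Cxcl5 had no entry. Cxcl1, Cxcl2 and Ccl20 are shown because they are the members whose windows hold the kappaB type motif, a choice made after the search. The windows of the other members with an entry lack it, and any link between the motif and how members vary was not tested. Capitals mark the kappaB type motif GGGNNTTTCC, the kind of element bound by NF-kappaB, and the hexamer AGAACA, an arm of the element bound by the androgen receptor. The windows run 5′ to 3′ on the forward strand: chr5:90890995-90891240, chr5:90903649-90903870 and chr1:83116516-83116765.
Cxcl1: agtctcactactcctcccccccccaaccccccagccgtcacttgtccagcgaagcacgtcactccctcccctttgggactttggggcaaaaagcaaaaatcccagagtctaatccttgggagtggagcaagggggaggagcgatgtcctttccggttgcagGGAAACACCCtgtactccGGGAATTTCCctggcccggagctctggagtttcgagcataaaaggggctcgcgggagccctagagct
Cxcl2: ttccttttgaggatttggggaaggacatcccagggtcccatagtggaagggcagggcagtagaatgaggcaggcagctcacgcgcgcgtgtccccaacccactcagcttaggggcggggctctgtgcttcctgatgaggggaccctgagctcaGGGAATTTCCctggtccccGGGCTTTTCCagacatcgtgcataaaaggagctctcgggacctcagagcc
Ccl20: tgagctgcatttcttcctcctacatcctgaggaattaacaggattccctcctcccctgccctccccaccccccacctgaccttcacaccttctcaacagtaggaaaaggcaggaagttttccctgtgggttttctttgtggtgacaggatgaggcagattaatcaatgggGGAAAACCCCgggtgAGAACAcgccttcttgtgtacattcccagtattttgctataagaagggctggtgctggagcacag
The kappaB type motif occurs at 2 places in the Cxcl1 window, at 2 in the Cxcl2 window and at 1 in the Ccl20 window, and none of these overlaps another motif. The sites start 85 and 67 bases before the end of the Cxcl1 window, 69 and 50 bases before the end of the Cxcl2 window, and 80 bases before the end of the Ccl20 window. The run GGGAATTTCC stands in both Cxcl1 and Cxcl2. The motif is present in 1.41% of the 32841 promoter windows of this length. The hexamer AGAACA, present in 16.1% of windows, was found in the Ccl20 and Cxcr4 windows, and the AP-1 motif TGANTCA, present in 6.75%, in the Il1a window. The STAT type motif TTCNNNGAA, present in 7.02%, was found in no member window. No searched motif was found in the Reg3g and Cxcl12 windows or in either Il33 window. A match describes letters, not a bound site.

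Il33 has 3 annotated places of start. Windows of the 2 that carry nearly all of its RNA are shown because organoids and tissue used them unequally, as described below. The short transcript Il33-203 starts further downstream, at position 29951816, and had at most 0.997 TPM in tissue and 3.74 TPM in organoids. It is left out of the sums by start. They lie on the forward strand at chr19:29924863-29925112 and chr19:29945540-29945789, and no letters are in capitals.
Il33 upstream start: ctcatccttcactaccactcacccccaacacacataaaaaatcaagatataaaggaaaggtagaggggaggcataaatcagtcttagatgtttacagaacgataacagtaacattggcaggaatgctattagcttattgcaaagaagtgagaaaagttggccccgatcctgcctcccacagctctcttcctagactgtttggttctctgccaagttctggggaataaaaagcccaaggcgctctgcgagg
Il33 downstream start: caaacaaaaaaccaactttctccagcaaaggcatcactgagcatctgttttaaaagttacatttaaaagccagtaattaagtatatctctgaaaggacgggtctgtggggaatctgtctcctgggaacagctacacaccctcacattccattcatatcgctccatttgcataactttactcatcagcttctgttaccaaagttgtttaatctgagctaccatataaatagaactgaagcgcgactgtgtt
The downstream window lies inside the region spanned by the transcripts of the upstream start.

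Organoid levels are given first. With DHT, and on the TPM scale that allows genes to be compared, Il33 was the most abundant member, at a median of 331 TPM over 9 libraries (298 to 367 TPM), above the range of every other member. Il1a (median 189 TPM), Cxcl1 (167 TPM), Cxcl5 (137 TPM), Ccl20 (127 TPM) and Tslp (105 TPM) followed, and then Cxcl2 (39.9 TPM), each with a range overlapping that of its neighbour in this order. Reg3g was at 9.68 TPM and Cxcr4 at 4.14 TPM. The ranges of Cxcl2 (26.4 to 55.4 TPM) and Reg3g (4.76 to 12.5 TPM) did not overlap, while those of Reg3g and Cxcr4 (1.10 to 5.15 TPM) did. Cxcl12 was nearly absent, with 3 reads in these 9 libraries together.

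The first question was what removing DHT does to these genes. Reg3g, Tslp and Cxcr4 had higher CPM in every organoid library without DHT than in any with DHT of the same genotype. On the TPM scale Cxcr4 overlapped in KO, where replicate 1 without DHT had 4.98 TPM, against 5.15 TPM in the highest library with DHT. None of the other members was called in any genotype. A gene is called where edgeR's quasi-likelihood test gives an adjusted p below 0.05, with Benjamini-Hochberg adjustment over all 15427 genes tested in organoids. Of the 9 members tested, 3 were called higher in HET, 1 in KO and 3 in WT organoids, against 0.344%, 0.194% and 0.603% of all genes called higher (0.707%, 0.557% and 1.3% in either direction, and 0.363%, 0.363% and 0.694% lower). Since the members were partly listed for these changes, nothing is read from that difference. The share of all genes whose groups did not overlap is not given here, so lack of overlap, here and below, describes the libraries only. Cxcl12 had too few reads to be tested.

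Reg3g had 7.91, 11.8 and 8.72 CPM in HET organoids without DHT, against 3.56, 4.33 and 4.93 CPM with DHT. In KO organoids it had 11, 15.1 and 12.1 CPM without DHT, against 4.48, 5.71 and 4.49 CPM with DHT. In WT organoids it had 11.9, 13.3 and 15.4 CPM without DHT, against 2.36, 4.4 and 3.26 CPM with DHT. The groups did not overlap in any genotype, which was a condition of the rule that had named Reg3g in these comparisons. The log2 change was 1.15 ± 0.213 in HET, 1.38 ± 0.213 in KO and 1.97 ± 0.221 in WT (SE of the fit, n = 3 each). The call in HET was lost when HET without DHT replicate 2 (log2 change 0.95), HET with DHT replicate 1 (1.03) or HET with DHT replicate 2 (1.16) was left out. The close relative Reg3b, at chr6:78370657-78373466 on the other strand, had at most 1 read in any organoid library.

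Tslp had 153, 115 and 93.4 CPM in HET organoids without DHT, against 52.9, 34.4 and 67.4 CPM with DHT. In KO organoids it had 219, 162 and 148 CPM without DHT, against 97.2, 75.2 and 87.5 CPM with DHT. In WT organoids it had 212, 147 and 196 CPM without DHT, against 105, 68.8 and 86.3 CPM with DHT. The groups did not overlap in any genotype, and the changes were of like size: 1.22 ± 0.249 in HET, 1.03 ± 0.247 in KO and 1.10 ± 0.249 in WT (log2, SE). The rise was called in HET and WT, and the KO value was not. The calls were lost without any 1 of 4 libraries in HET (log2 change 1.00 to 1.24: replicates 1 and 2 of both groups) and any 1 of 4 in WT (0.96 to 1.09: without DHT replicates 1 and 3, with DHT replicates 2 and 3).

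Cxcr4 had 8.13, 9.32 and 9.62 CPM in HET organoids without DHT, against 5.15, 5.24 and 5.40 CPM with DHT. In KO organoids it had 6.48, 7.95 and 6.97 CPM without DHT, against 5.65, 5.57 and 4.63 CPM with DHT. In WT organoids it had 4.65, 6.55 and 6.48 CPM without DHT, against 1.46, 2.19 and 2.09 CPM with DHT. The lowest values of the receptor were thus those of WT organoids with DHT. The log2 change was 0.78 ± 0.159 in HET, 0.44 ± 0.159 in KO and 1.57 ± 0.171 in WT (SE, n = 3 each), and the KO value was not called. The HET call was lost when any of its 6 libraries was left out (log2 change 0.73 to 0.85) and without the low-count filter (0.78).

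**Figure D1:**
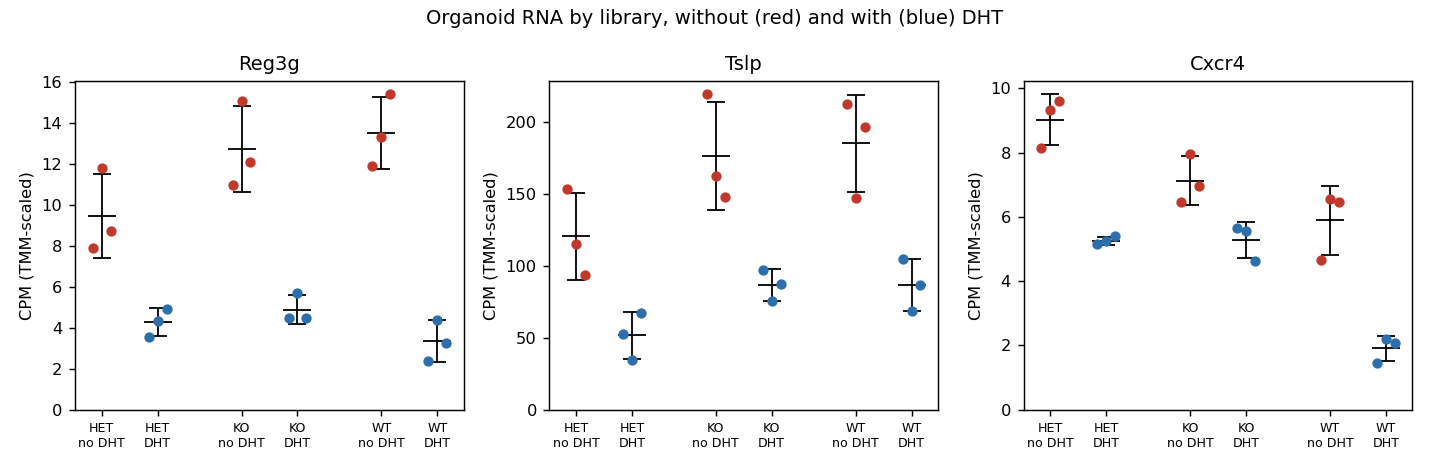
CPM of Reg3g, Tslp and Cxcr4 in each organoid library without DHT (red) and with DHT (blue), for HET, KO and WT. Points are libraries, and black marks and bars are the mean and SD of 3 libraries. For these genes, partly listed for such rises, the red points lie above the blue ones in each genotype. Cxcr4 in WT organoids with DHT, at 1.46 to 2.19 CPM, lies below every other group.

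The neutrophil chemokines did not pass the test on withdrawal. Cxcl5 had 344, 211 and 211 CPM in HET organoids without DHT, against 147, 102 and 154 CPM with DHT, and in KO organoids 439, 214 and 215 CPM without DHT, against 172, 124 and 164 CPM with DHT. These groups did not overlap, but the log2 values of 0.93 ± 0.310 in HET and 0.92 ± 0.310 in KO were not called. In WT organoids Cxcl5 had 178, 149 and 180 CPM without DHT, against 227, 111 and 132 CPM with DHT, with overlap and a log2 value of 0.12 ± 0.308. The highest HET and KO libraries were the replicates 1 with the high mitochondrial share. Without them the log2 value was 0.65 in HET and 0.48 in KO, and the part of mitochondrial share in it was not tested.

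Cxcl1 gave log2 values of 0.20 in HET, 0.17 in KO and -0.33 in WT (SE 0.249 to 0.250), and its groups overlapped in all 3. Cxcl2 gave 0.02 in HET, 0.02 in KO and -0.38 in WT (SE 0.238 to 0.241), likewise with overlap. Ccl20 gave -0.26 in HET, -0.0087 in KO and -0.26 in WT (SE 0.131). Ccl20 groups overlapped in KO and WT and stood apart in HET, where they had 60.1, 51.1 and 50.2 CPM without DHT, against 70.4, 61.8 and 60.6 CPM with DHT.

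Of the interleukin-1 family alarmins, Il33 gave log2 values of 0.29 in HET, 0.22 in KO and 0.0088 in WT (SE 0.170), with overlapping groups. Il1a was lower without DHT in all 3 genotypes, and none of these values was called. In WT organoids it had 183, 127 and 174 CPM without DHT, against 304, 215 and 234 CPM with DHT, with no overlap and a log2 value of -0.64 ± 0.187. In HET organoids the value was -0.30 ± 0.186 and in KO organoids -0.32 ± 0.186.

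**Figure D2:**
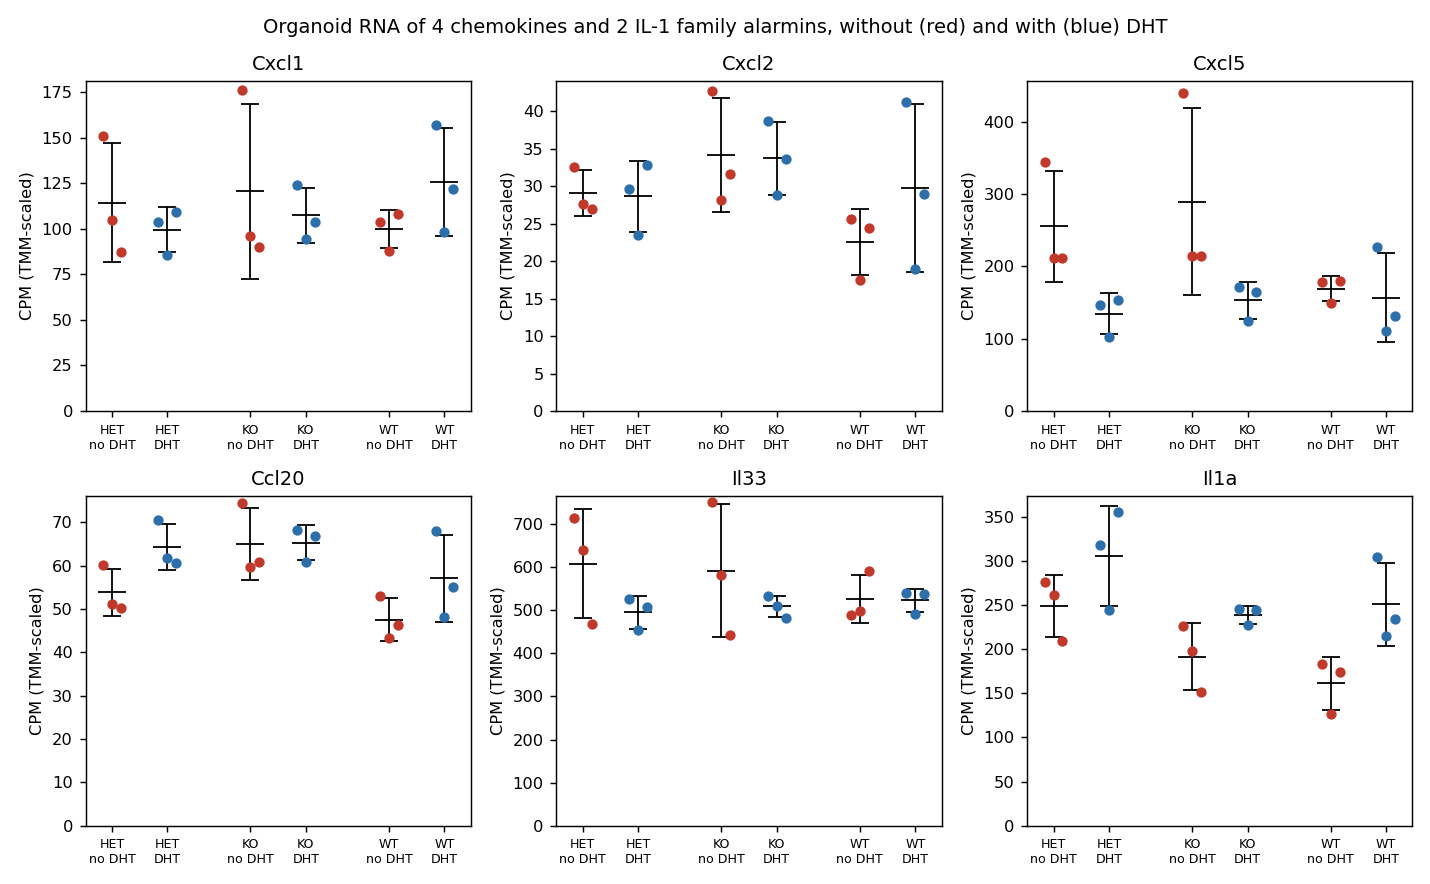
CPM of Cxcl1, Cxcl2, Cxcl5, Ccl20, Il33 and Il1a in each organoid library without DHT (red) and with DHT (blue). Points are libraries, and black marks and bars are the mean and SD of 3. Cxcl5 in HET and KO, Ccl20 in HET, and Il1a in KO and WT are the groups without overlap, and replicate 1 of HET and KO without DHT is the highest Cxcl5 library, at 344 and 439 CPM.

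Whether the genotypes responded differently to withdrawal was tested as the difference of log2 changes in the same fit. No gene of 15427 was called, for HET against WT or for KO against WT, by edgeR's test, with 433 and 417 genes at an unadjusted p below 0.05; DESeq2 called 6 in each. The largest member difference was that of Cxcr4, whose response in KO was smaller than in WT by -1.14 ± 0.232 on the log2 scale (adjusted p = 0.935 by edgeR; adjusted p over the alternatives 0.0198 to 1, the lowest from DESeq2). For HET against WT it was -0.79 ± 0.231 for Cxcr4 and -0.82 ± 0.302 for Reg3g. For Tslp it was 0.12 ± 0.347 in HET and -0.071 ± 0.347 in KO against WT. Withdrawal in WT had named Cxcr4, so its difference from the other genotypes is no independent test.

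The second question was what the Brca1 genotype labels do to these genes in organoids. Cxcr4 was the only member called in any of the 6 genotype comparisons. It rose in HET and in KO organoids with DHT, and in HET organoids without DHT. Its values were 5.15 to 5.40 CPM in HET and 4.63 to 5.65 CPM in KO organoids with DHT, against 1.46 to 2.19 CPM in WT with DHT. The log2 change was 1.41 ± 0.171 in both comparisons. Over the alternatives it ran from 1.30 to 1.51 for HET and from 1.31 to 1.51 for KO. These comparisons share the WT libraries with DHT with each other and with withdrawal in WT, in which Cxcr4 had been named. The calls are therefore no independent support for a genotype difference. Without DHT, HET organoids exceeded WT by 0.62 ± 0.158, a call lost without the low-count filter (0.61), without HET replicate 2 (0.59) or 3 (0.57), and without WT replicate 1 (0.48). KO against WT without DHT gave 0.28 ± 0.158 and overlapped. Markers of other cells also differed with DHT: the leukocyte markers, nearly all Cd68, summed to 80.2 to 92.8 TPM in HET, 56.9 to 67.6 TPM in KO and 65.3 to 71.2 TPM in WT organoids. The fibroblast and smooth muscle markers summed to 7.54 to 11.1 TPM in HET, 29 to 35.6 TPM in KO and 19.6 to 22.1 TPM in WT. Most of this was 1 gene, Dcn, at 6.73 to 9.49 TPM in HET, 24.3 to 32.1 TPM in KO and 18.2 to 20.9 TPM in WT. The part of these markers in the genotype values was not tested.

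With DHT, 1 of the 9 members tested was called for HET over WT, against 7.51% of all genes (4.03% higher, 3.47% lower). For KO over WT it was 1, against 4.11% (2.53% higher, 1.58% lower), and for KO over HET 0, against 3.54% (1.79% higher, 1.75% lower). Without DHT, 1 was called for HET over WT, against 7.81% (4.52% higher, 3.29% lower). For KO over WT it was 0, against 4.8% (2.83% higher, 1.98% lower), and for KO over HET 0, against 2.92% (1.35% higher, 1.56% lower). A single called member of 9 is near these shares.

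Tslp did not pass the test in any genotype comparison. With DHT it averaged 51.6 ± 16.6 CPM in HET and 86.8 ± 18.3 CPM in WT organoids (SD, n = 3 each), a log2 value of -0.75 ± 0.248 that was not called by edgeR and was called by DESeq2. KO against HET with DHT gave 0.75 ± 0.247 for Tslp, also not called. Reg3g gave 0.31 ± 0.22 for HET and 0.50 ± 0.219 for KO over WT with DHT, and -0.51 ± 0.207 and -0.082 ± 0.206 without DHT, none called.

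Among the alarmins and chemokines whose naming did not rest on these organoid comparisons, Il1a without DHT had 276, 262 and 209 CPM in HET organoids, against 183, 127 and 174 CPM in WT organoids. The groups did not overlap, and the log2 value of 0.63 ± 0.187 had an adjusted p of 0.0539 by edgeR's quasi-likelihood test and 0.0198 to 0.248 over the alternatives. Ccl20 without DHT had 74.5, 59.7 and 60.7 CPM in KO organoids, against 52.9, 43.3 and 46.4 CPM in WT organoids. Again the groups did not overlap, at a log2 value of 0.45 ± 0.131 (adjusted p = 0.0675 by edgeR, 0.0241 by DESeq2 and 0.00341 to 0.259 over the alternatives). The lowest came from an edgeR fit with the replicate number as a block, and the numbers were not found to pair libraries in this comparison. Without DHT, Cxcl5 gave 0.60 ± 0.308 in HET and 0.78 ± 0.309 in KO over WT, and Cxcl2 gave 0.36 ± 0.239 and 0.60 ± 0.239. None of these was called (edgeR adjusted p 0.221 to 0.463), though the CPM values did not overlap. Il33 lay within 0.21 of 0 on the log2 scale in all 6 genotype comparisons, and Cxcl1 within 0.33.

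**Figure D3:**
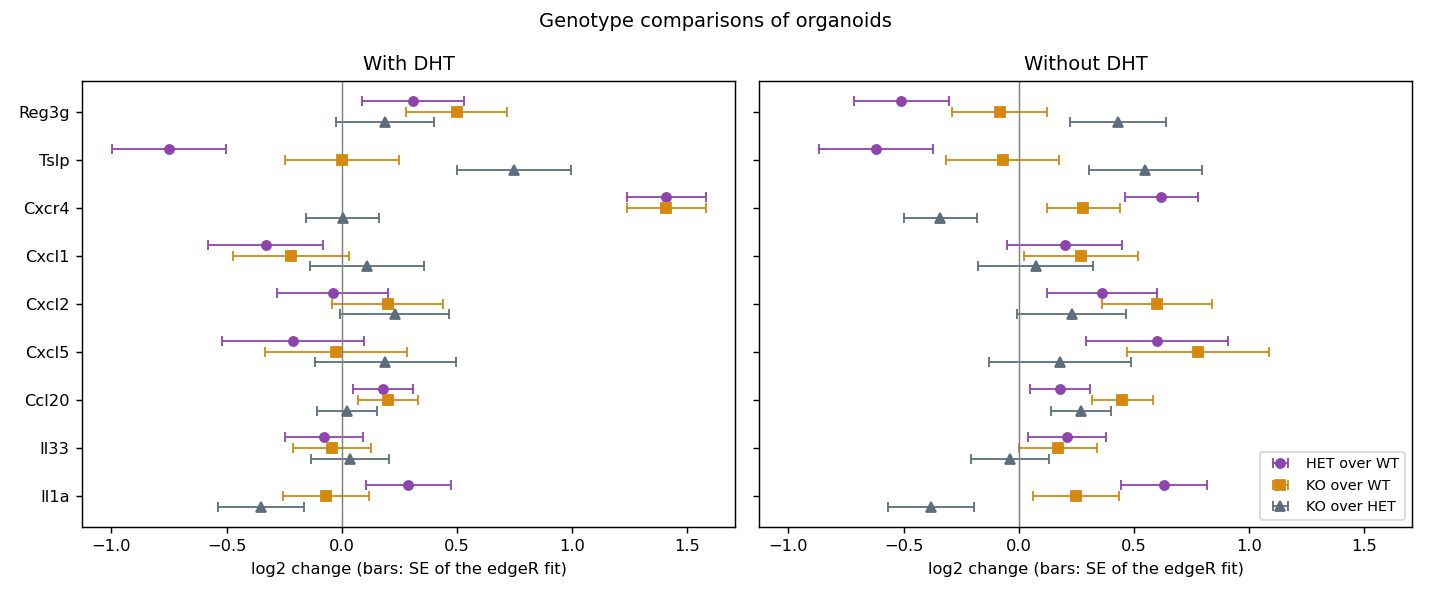
Log2 change of 9 members in organoids with DHT (left) and without DHT (right) for HET over WT (purple circles), KO over WT (orange squares) and KO over HET (grey triangles); bars are the SE of the edgeR fit. Cxcr4 with DHT stands at 1.41 for both comparisons with WT, and the remaining values lie between -0.75 and 0.78.

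The third question was how organoids differ from anterior lobe tissue. Tissue held far more Reg3g and Cxcl12 and far less of the alarmins and of the other chemokines. All 10 members were called, 2 higher and 8 lower, in tissue over organoids with DHT, against 75.3% of 17912 genes called (41.7% higher, 33.7% lower). The makeup of the materials differed by the markers of several cell types. Fibroblast and smooth muscle markers summed to 429 to 1601 TPM in tissue, against 7.54 to 35.6 TPM in organoids with DHT, with 10 of 10 markers at a mean of 1 TPM or more in tissue and 1 or 2 of 10 in each organoid group. Endothelial markers summed to 36.2 to 42.1 TPM in tissue, against 2.02 to 7.84 TPM in organoids with DHT. Leukocyte markers summed to 39.7 to 159 TPM in tissue (9 of 10 at 1 TPM or more), against 56.9 to 92.8 TPM in organoids with DHT (1 or 2 of 10 in each group), where Cd68 alone had 55.8 to 91.1 TPM. Epithelial makeup differed too: the 4 basal markers summed to 112 to 1691 TPM in tissue, against 2076 to 2926 TPM in organoids with DHT, and Krt5 among them had 24.5 to 171 TPM in tissue, against 830 to 1365 TPM. Pbsn, a luminal secretory gene, had 65.3 to 19649 TPM in tissue, against at most 0.116 TPM in organoids with DHT. In bulk RNA, fewer cells of a type and less RNA per cell cannot be told apart, and the part of cell makeup in these differences was not tested.

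Reg3g had 781 and 314 TPM in HET tissue, 400 and 334 TPM in KO tissue, and 399 and 0.753 TPM in WT tissue, against 4.76 to 12.5 TPM (median 9.68) in organoids with DHT. In 5 of 6 tissue libraries it was thus above every organoid library, and in WT tissue replicate 2, with the most seminal vesicle RNA, it was below all of them. The log2 change was 4.91 ± 0.578, and 5.0 without the 2 libraries with seminal vesicle RNA. Reg3b had 361 and 6.71 TPM in HET tissue, 17.8 and 13.0 TPM in KO tissue, and 13.3 and 0 TPM in WT tissue, so HET tissue replicate 1 was the highest for both genes.

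Cxcl12 had 13.4 and 4.45 TPM in HET tissue, 7.65 and 6.27 TPM in KO tissue, and 7.05 and 15.1 TPM in WT tissue, against 0 to 0.0181 TPM in organoids with DHT. In counts this is 3299 reads in 6 tissue libraries, against 3 reads in 9 organoid libraries with DHT. Per read sequenced, the ratio was 1727 (95% interval 590 to 8379, counting error only). The 9 organoid libraries without DHT held 13 reads. Its receptor gene Cxcr4 had overlapping ranges, at 0.730 to 8.79 TPM (median 2.09) in tissue and 1.10 to 5.15 TPM (median 4.14) in organoids with DHT. Cxcr4 was nevertheless called lower in tissue. Without the 2 libraries with seminal vesicle RNA the log2 change of Cxcl12 was 10.03. For Cxcr4 it was -0.61 ± 0.213, and -0.94 without those libraries. The value of Cxcr4 was not called within HET (-0.32), KO (-0.85) or WT (-0.66) alone, nor without KO tissue replicate 2 (-0.54).

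The remaining 7 members were lower in tissue without overlap, in a comparison in which 75.3% of all genes were called. Il1a had 0.123 to 0.667 TPM (median 0.234) in tissue, against 162 to 247 TPM (median 189) in organoids with DHT, a log2 change of -9.63 ± 0.313. Tslp had 0.286 to 0.767 TPM (median 0.602) in tissue, against 44.4 to 144 TPM (median 105), a change of -7.66 ± 0.244. By median they were the least abundant members in tissue, but in WT tissue replicate 2 Cxcl2, Cxcl5 and Ccl20 were listed at 0, below both. In tissue no library held more than 30 reads of Il1a or 20 reads of Tslp.

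Ccl20 had 0 to 6.09 TPM (median 2.54) in tissue, against 103 to 150 TPM (median 127) in organoids with DHT (log2 change -6.24 ± 0.290, edgeR adjusted p = 8.14e-13). Cxcl5 had 0 to 16.9 TPM (median 0.794) in tissue, against 89.2 to 197 TPM (median 137), a log2 change of -6.19 ± 0.646 (edgeR adjusted p = 6.93e-08). Cxcl1 had 0.290 to 30.3 TPM (median 7.12) in tissue, against 128 to 235 TPM (median 167), a log2 change of -4.70 ± 0.454 (edgeR adjusted p = 2.45e-08). Lowest of all tissue libraries for these 3 chemokines was WT tissue replicate 2, and highest for Cxcl1 and Cxcl5 was HET tissue replicate 1.

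Il33 had 11.8 to 53.1 TPM (median 18.6) in tissue, against 298 to 367 TPM (median 331) in organoids with DHT, a log2 change of -4.08 ± 0.213 (edgeR adjusted p = 4.27e-12). Cxcl2 had 0 to 17.4 TPM (median 2.25) in tissue, against 26.4 to 55.4 TPM (median 39.9), a log2 change of -3.67 ± 0.490 (edgeR adjusted p = 1.78e-06). Leaving out the 2 libraries with seminal vesicle RNA gave -4.32 for Il33, -4.29 for Cxcl2, -7.11 for Cxcl5, -5.02 for Cxcl1, -6.22 for Ccl20, -7.60 for Tslp and -10.12 for Il1a, on the log2 scale, and all 7 stayed called. Within HET, KO and WT taken singly, 9 of 10 members were called each time, Cxcr4 being the exception.

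**Figure D4:**
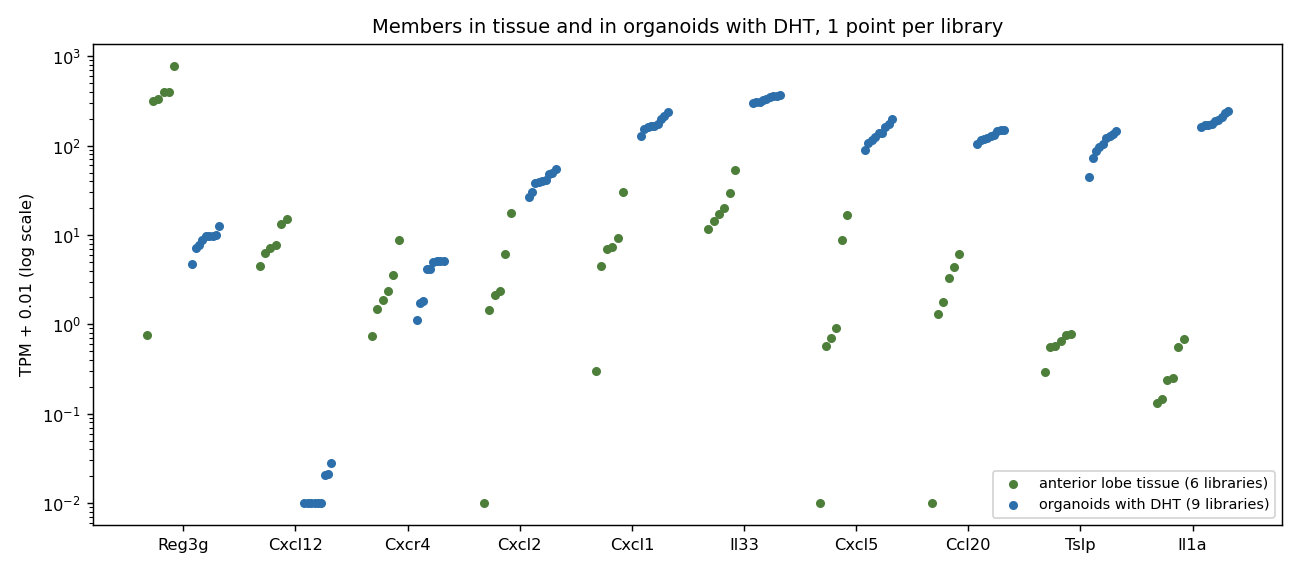
TPM plus 0.01 on a log axis for the 10 members in 6 tissue libraries (green, left) and 9 organoid libraries with DHT (blue, right); each point is a library, ordered by value within its group. Reg3g and Cxcl12 are higher in tissue, apart from WT tissue replicate 2 for Reg3g at 0.753 TPM, Cxcr4 overlaps, and the other 7 are lower in tissue in every library.

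Il33, and on few tissue reads Tslp, also differed between materials in which transcripts carried the RNA. This comparison was chosen after values were seen and is given without a test. Transcript Il33-201, from the downstream start, made up 1.36% and 7.51% of Il33 TPM from the 2 starts in HET tissue, 0% and 10.4% in KO tissue, and 0% and 0% in WT tissue. In organoids with DHT its share was 58.1% to 72.3% (median 66.9%), and without DHT 61.1% to 74.9%. Upstream-start transcripts had 11.8 to 52.4 TPM in tissue and 83.8 to 146 TPM in organoids with DHT, while the downstream-start transcript had 0 to 2.09 TPM in tissue and 179 to 245 TPM in organoids with DHT. Both groups of transcripts were thus lower in tissue, the downstream one by more. The protein-coding transcript Tslp-201 had 0 TPM in 5 tissue libraries and 0.286 TPM in WT tissue replicate 2, against 40.5 to 132 TPM in organoids with DHT. The tissue reads of Tslp, only 6 to 20 per library, fell mostly on Tslp-202, a transcript annotated as retaining an intron, at 0 to 0.767 TPM. Salmon splits reads among overlapping transcripts, so these are estimates.

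**Figure D5:**
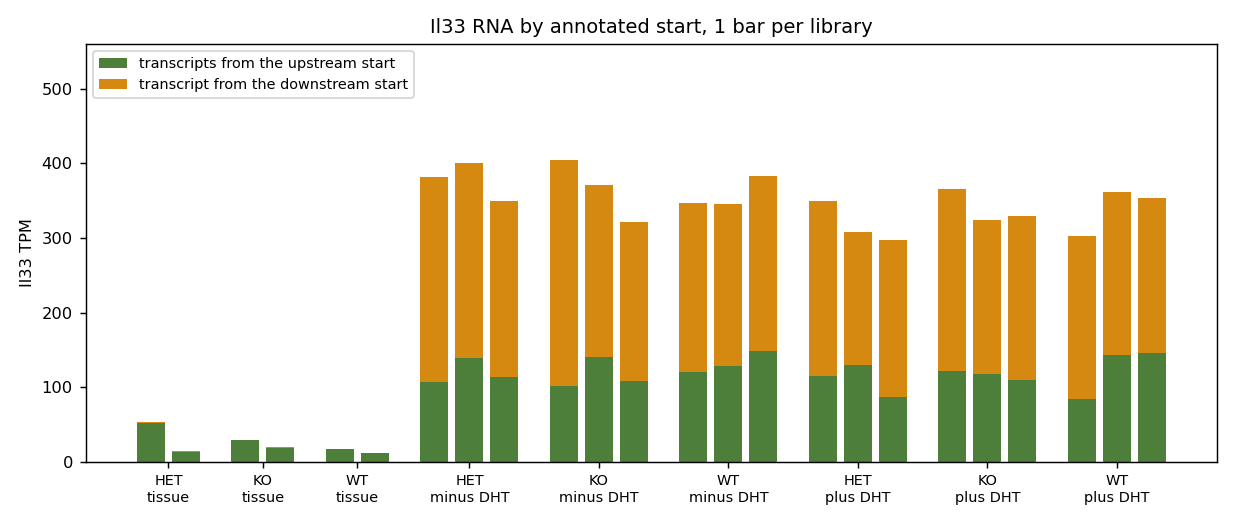
Il33 TPM by annotated start in each library, in tissue (left) and in organoids without and with DHT; green is the summed TPM of the upstream-start transcripts and orange that of the downstream-start transcript. The orange part is at most 2.09 TPM in tissue and at least 179 TPM in organoids.

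Within tissue, genotype comparisons called no gene of 16753 by edgeR (0% in each of 3 comparisons), with 457, 321 and 97 genes at an unadjusted p below 0.05 for HET over WT, KO over WT and KO over HET; DESeq2 called 10, 25 and 10. The largest member values were those of Cxcl5, with 16.9 and 0.690 TPM in HET tissue and 8.75 and 0.899 TPM in KO tissue, against 0.556 and 0 TPM in WT tissue. The 10 leukocyte markers summed to 159 and 63.7 TPM in HET tissue, 70.3 and 57.6 TPM in KO tissue, and 63.4 and 39.7 TPM in WT tissue. HET tissue replicate 1 was thus the highest library for both Cxcl5 and this sum, and the sums of HET replicate 2 and KO replicate 2 were near that of WT replicate 1. The log2 value of Cxcl5 was 4.61 ± 2.06 for HET and 3.92 ± 2.01 for KO over WT. Without the 2 libraries with seminal vesicle RNA it was 0.30 and 3.01, and 16 of the 30 member values in tissue changed sign. The part of leukocytes and of seminal vesicle in these values was not tested.

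Members also varied together among organoid libraries. After removing group means, the correlation over 18 libraries was 0.95 for Cxcl1 with Cxcl5, 0.86 for Cxcl2 with Ccl20, 0.83 for Cxcl1 with Cxcl2 and 0.91 for Tslp with Il1a. Il1a correlated at 0.80 with Cxcl1 and 0.79 with Cxcl2, and Il33 at 0.82 with Cxcl1. Reg3g correlated at 0.73 with Cxcr4 and at -0.84 with Ccl20. These points share libraries and depth, and the values are descriptions. Replicate 1 of WT with DHT, of HET without DHT and of KO without DHT are the smallest library and those with the high mitochondrial share. In each of them Cxcl1, Cxcl2, Cxcl5, Ccl20, Tslp, Il33 and Il1a had the highest CPM of the group. Reg3g and Cxcr4 had the lowest there. The part of these libraries in the correlations was not tested. Likeness was then taken over all 18 libraries with group differences included, among 9901 genes averaging 5 CPM or more. The pattern most like that of Reg3g was that of Pkp4 (r = 0.92), followed by Per2 (0.91) and Cxcl15 (0.90). With group means removed these values were 0.46, 0.32 and 0.21, so the likeness of Reg3g lies mostly in the differences between groups, for which it had been named. For Tslp it was Ets1 (0.94, and 0.91 with group means removed), for Cxcr4 Gsdmc2 (0.93 and 0.71), for Cxcl1 Cisd2 (0.95 and 0.97) and for Cxcl5 Jph1 (0.94 and 0.90). For Il33 it was Fra10ac1 (0.95 and 0.95), for Il1a Ifngr2 (0.92 and 0.84), for Cxcl2 Cdc42bpa (0.85 and 0.87), and for Ccl20 it was Cxcl2 (0.84 and 0.86).

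Other genes of the same pathways were taken from 8 lists, chosen with earlier results known. On withdrawal, 0.707% of all genes were called in HET, 0.557% in KO and 1.3% in WT, and the list counts are to be read against these shares. On withdrawal, Cxcl15, a neutrophil-attracting chemokine of mouse epithelia, rose in all 3 genotypes, by 0.70 ± 0.128 in HET, 0.71 ± 0.128 in KO and 1.07 ± 0.129 in WT on the log2 scale. It was the only 1 of the 5 other tested genes of the CXCR2 list that was called, and the list median was 0.36, 0.54 and 0.37, against 0.025, 0.026 and 0.012 for all genes. Of the 12 tested genes of the antimicrobial list, 1, 1 and 2 were called lower in HET, KO and WT and none higher, at list medians of -0.24, -0.21 and -0.54. They were Defb1, a beta-defensin, at -1.39 ± 0.189 in HET, -0.99 ± 0.186 in KO and -1.12 ± 0.186 in WT, and Lcn2, which binds bacterial iron carriers, at -0.73 ± 0.133 in WT. Defb1 thus fell in the same 3 genotypes in which Reg3g rose.

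Of 12 other chemokine and receptor genes tested, the mucosal chemokine Ccl28 fell in all 3 genotypes, by -1.74 ± 0.352 in HET, -2.97 ± 0.379 in KO and -2.23 ± 0.394 in WT, from mean levels of at most 0.647 TPM. Cxcl14 rose by 1.33 ± 0.206 in WT. None of 18 NF-kappaB target and feedback genes, of 13 genes of the IL-22, IL-17, IL-6 and STAT3 list, of 11 other genes of the IL-1 and alarmin list, of 4 other genes of the Cxcl12 axis or of the single tested TSLP partner was called on withdrawal in any genotype. Their list medians lay between -0.21 and 0.66. No call in lists of this size is near the shares of all genes called, so it does not show that these pathways were unchanged.

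Between genotypes, the called list genes differed from the members. Il22ra1, a subunit of the receptor for IL-22, the cytokine that induces Reg3g in the mouse gut, was lower in HET than in WT organoids, by -1.59 ± 0.210 with DHT and -1.36 ± 0.207 without DHT. Cxcl11, an interferon-induced ligand of CXCR3, was lower in KO than in WT organoids, by -2.89 ± 0.386 with DHT and -3.73 ± 0.397 without DHT. Lcn2 was higher in HET by 0.52 ± 0.132 with DHT and 0.76 ± 0.133 without, and in KO by 0.67 ± 0.133 and 0.96 ± 0.133. Pigr, which carries antibodies across epithelia, was higher in HET by 0.89 ± 0.0849 with DHT and 0.86 ± 0.0848 without. Ackr3, another receptor for CXCL12, was higher in KO than in HET organoids, by 1.56 ± 0.271 with DHT and 1.03 ± 0.263 without.

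In tissue over organoids with DHT, 75.3% of all genes were called, 41.7% higher and 33.7% lower, and the list counts are to be read against these shares. Of the 18 NF-kappaB genes 14 were called lower and 2 higher, at a list median of -1.42 against 0.18 for all genes. Among the lower ones were Nfkbiz, an atypical member of the inhibitor family, at -3.33 ± 0.179, and Zc3h12a, an RNase that degrades inflammatory mRNAs, at -3.38 ± 0.164. Traf1, an adaptor of TNF receptors, was higher at 4.34 ± 0.254. Of the other IL-1 family and alarmin genes, 5 of 13 were higher and 5 lower, near the shares of all genes. Among them were Il18 at 2.40 ± 0.170 and Il1b at 4.30 ± 0.611, both higher in tissue where Il33 and Il1a were lower. The other chemokine list went the other way, with 16 of 21 tested genes called higher and 2 lower at a median of 2.98. Among the higher ones were Cxcl14 at 3.40 ± 0.140 and Ccl9 at 2.98 ± 0.281. Of 16 antimicrobial genes tested besides Reg3g, 8 were higher and 6 lower; Defb1 rose by 4.18 ± 0.306 and Lcn2 fell by 2.24 ± 0.205 on the log2 scale. Of the TSLP partners, both Crlf2, its receptor chain (1.62 ± 0.298), and Il7r (3.19 ± 0.7) were higher in tissue, where Tslp itself was lower.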

How the data were processed

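The files hold 116945 transcripts each for 24 libraries, with estimated counts and TPM made by the authors with Salmon 0.13.1, per the file headers and the submitters' processing notes. Those notes also name the build hg38, whereas the identifiers are mouse Ensembl transcripts; they were matched, without version, to GENCODE mouse release 21 (GRCm38). Between 0.2275% and 0.3266% of reads fell on the 922 transcripts without a match. The index, trimming and strand setting are not given in the sources used here. Deposited estimated counts were summed per gene and rounded, and deposited TPM were summed per gene.

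Tests were edgeR 4.0.16 quasi-likelihood F-tests (R 4.3.3) with TMM scaling, a low-count filter by group and Benjamini-Hochberg adjustment at 0.05 over all genes: 15427 genes in 18 organoid libraries, 16753 in 6 tissue libraries and 17912 in all 24. SE is the log2 change over the square root of F. CPM are TMM-scaled. The steps were tested on simulated counts. Alternatives were DESeq2 1.42.0, its size factors, no filter, a replicate block, leaving out libraries, and single genotypes. No 2 libraries of a group agreed within sampling noise (chi-square per degree of freedom at least 18.3).

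The members, lists, naming rule and alternatives were chosen with earlier results of these data known. The rule names all members, the 3 genes most like each, and called genes of each list with the lowest p. The list genes Ccl19 and Il36rn had no match; Il36a, Il36b and Il36g were matched under older symbols. A marker used to check the DHT labels is not reported here. The replicate numbers were taken to pair samples only in KO over HET without DHT, where same-numbered libraries deviated together (r from 0.23 to 0.69). The labels do not state a pairing. Replicate 1 of both groups had the high mitochondrial share, and its part in these correlations was not tested. Elsewhere, with a pair under 0.1 or only 2 pairs, the replicate numbers were taken as numbers only.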

Additional observations from a re-analysis of the deposited data

How the results depend on the processing

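Of 330 recomputed values of called members, 304 stayed called in the same direction and 26 were no longer called, 21 of these with a library left out; none reversed. Of 1278 values of uncalled members, 17 became called and 103 changed sign, 16 of these in tissue with both libraries rich in seminal vesicle RNA left out. Counts of genes called moved more. DESeq2's test called 295 genes for withdrawal in HET, 281 in KO and 396 in WT, 6 and 6 for the response differences, 989 for KO over WT and 994 for KO over HET with DHT, 1164 and 800 for these without DHT, and 10, 25 and 10 for HET over WT, KO over WT and KO over HET in tissue. Without the low-count filter, tissue gave 2 for HET over WT and 1 for KO over WT. Leaving out the 2 tissue libraries gave 27, 82 and 60. With single libraries left out, counts ran from 43 to 81 for withdrawal in HET, 42 to 60 in KO and 114 to 196 in WT; from 709 to 841 for HET over WT, 394 to 562 for KO over WT and 246 to 353 for KO over HET with DHT; from 812 to 1476, 412 to 733 and 227 to 373 for these without DHT; and from 0 to 84 for HET over WT in tissue, the 84 arising without WT tissue replicate 1. That setting leaves WT tissue replicate 2 alone in its group, and the lone sample is then assumed to vary like the other groups; it gave Reg3g a log2 value of 9.01. The causes were not tested.

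With the replicate number as a block, withdrawal in HET called 167 genes and the response difference for HET against WT 1. In KO over HET without DHT, where same-numbered libraries deviated together, the block called 532 genes against 450 and no member, so it changed no member's call there. Elsewhere the numbers were not taken as pairs, and the block called 239 genes for withdrawal in WT and 117 in KO. It also called 9 member values not called before, among them Cxcl5 for withdrawal in HET (0.90). In tissue, with 2 pairs each, same-numbered libraries correlated at 0.41 for KO and HET, 0.11 for KO and WT and -0.21 for HET and WT; the block called 0 genes in all 3, and for HET over WT a block with the HET numbers crossed, chosen after seeing the data, called 0 genes. Depth limits Cxcl12 in organoids, Reg3g and Cxcr4 in the smallest library (21 and 13 reads), and Tslp and Il1a in tissue. With 2 libraries per group and a coefficient of biological variation of 0.502, uncalled tissue values do not show that genotypes act alike.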

Other observations

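Ppbp, which encodes another CXCR2 ligand, had 0 to 0.586 TPM in tissue and 74 to 247 TPM over all 18 organoid libraries. Its log2 change in tissue over organoids with DHT was -10.06 ± 0.338, and it has the lowest p of its list there. Cxcl3, a further CXCR2 ligand gene beside Cxcl5, Cxcl1 and Cxcl2 at chr5:90786103-90789600, shared their difference between materials. It had 0 to 2.51 TPM in tissue and 13.6 to 34.0 TPM over all 18 organoid libraries. The log2 change in tissue over organoids with DHT was -5.42 ± 0.452 (edgeR adjusted p = 3.18e-09). The receptors of the members' ligands were looked up after values were seen. Cxcr2, the receptor of the CXCR2 ligands, was at 0.642 to 2.81 TPM in tissue and at 1.09 to 2.47 TPM in organoids, so the ranges overlapped. Ccr6, the receptor of CCL20, was at most 0.358 TPM in tissue and 0.272 TPM in organoids. Il1rl1, which encodes the receptor of IL-33, was at 0.125 to 0.340 TPM in tissue and 0.0506 to 0.188 TPM in organoids, and Il1r1, which encodes the receptor of IL-1, at 5.89 to 30.1 TPM in tissue and 2.53 to 5.81 TPM in organoids. The ranges of Il1r1 did not overlap.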
